A study of Homo sapiens with 6 samples.

Results

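Sorting nexins are a family of endosomal proteins, and 10 of them were followed here after SNHG17 knockdown: SNX1, SNX2, SNX3, SNX4, SNX5, SNX6, SNX9, SNX12, SNX17 and SNX27. They are 10 of the 54261 gene rows in the count table. The set was drawn up around SNX12, which had one of the largest falls after SNHG17 knockdown, and its relatives were added by name. The fold change of SNX12 is therefore given as a description, and no test of it is read as support. The relatives were measured in the same contrast as SNX12, and their values are descriptions too. All RNA came from A549, an established human lung adenocarcinoma cell line grown with fetal bovine serum. In 3 libraries an siRNA had lowered SNHG17, a long noncoding RNA that hosts small nucleolar RNAs (si-SNHG17), and the 3 others were its controls (si-NC). The sources used here give no siRNA sequence, dose or time of collection. Nothing in the labels ties the numbered libraries to separate cultures, so the spread between them may be technical.

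A sorting nexin carries a PX domain, a fold that in many members binds the lipid phosphatidylinositol 3-phosphate and brings the protein to early endosomes. There the family helps to choose which membrane proteins are returned to the cell surface or the Golgi and which go on to lysosomes. SNX3 and SNX12 are small members made of little more than the PX domain. SNX1, SNX2, SNX5 and SNX6 add a BAR domain and work in pairs that bend membrane into tubules, and SNX4 and SNX9 also carry BAR domains. SNX17 and SNX27 add a FERM-like domain that reads sorting signals in cargo tails.

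SNX12 and SNX3 were the closest pair of the 10 by coding sequence (GENCODE release 29). Their aligned coding sequences, 489 bases each, were identical at 345 of 492 aligned positions (70.1%), ahead of SNX5 and SNX6 (64.0%) and SNX1 and SNX2 (62.8%). The stretch of 120 bases in which they were most alike is shown because the 2 rows can be told apart only where reads differ; capitals mark the 26 bases at which they differ. It spans coding bases 214 to 333 of SNX12 and 211 to 330 of SNX3, counted from the A of the start codon.
SNX12: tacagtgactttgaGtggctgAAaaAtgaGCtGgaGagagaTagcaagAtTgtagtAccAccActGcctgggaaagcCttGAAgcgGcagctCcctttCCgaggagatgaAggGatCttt
SNX3: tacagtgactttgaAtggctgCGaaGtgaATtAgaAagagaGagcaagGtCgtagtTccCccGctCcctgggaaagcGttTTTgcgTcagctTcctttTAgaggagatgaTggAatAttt
The longest run of identical bases between the 2 whole transcripts was 14. The pseudogene rows SNX3P1X and SNX3P1Y held 0 counts in every library.

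The libraries held 8643076 to 12477214 counts. In this paragraph and below, a level is in CPM, counts scaled to 1000000 per library after TMM scaling, unless it is stated per length. SNHG17, the targeted RNA, was at 7.82, 8.39 and 11.3 CPM in si-SNHG17 and at 38.7, 36.2 and 51.4 CPM in si-NC. The epithelial keratins KRT8 and KRT18 stood at 4257 and 4355 CPM in si-NC, while EPCAM was at 1.53 CPM. The 5 epithelial markers summed to 4990 to 5000 CPM in si-SNHG17 and 8420 to 9420 CPM in si-NC. The defining immune markers PTPRC and CD3E had no count in any library, which allows up to 3 counts in each. The 12 immune, stromal and endothelial markers summed to 512 to 617 CPM in si-SNHG17 and 227 to 318 CPM in si-NC, mostly CD68. The part of either marker list in the results was not tested. By edgeR's quasi-likelihood test, 6112 of 15614 genes passed an adjusted p of 0.05, and the median log2 fold change was 0.01.

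SNX12 fell to a small part of its control level while SNX3, its closest relative, stood at 112% of its own. SNX12 lies on chromosome X from 71059247 to 71073426 (RefSeq, GRCh38.p14, minus strand), with no other GENCODE gene over it. It had 11.1, 10.6 and 11.7 CPM in the si-SNHG17 libraries, from 106, 132 and 103 counts. In the si-NC libraries it had 71.0, 77.8 and 76.9 CPM, from 624, 789 and 821 counts. All 3 knockdown libraries sat far below all 3 controls, with little spread inside either group. The means were 11.1 ± 0.598 CPM and 75.2 ± 3.67 CPM (SD, n = 3 each), so 14.8% of the control level remained. On the log2 scale the difference was -2.76 (standard error 0.107), a 6.79-fold lower level and rank 9 from the lowest among the 15614 genes tested.

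SNX3, which works with retromer and is known for returning the Wnt carrier WLS to the Golgi, lies on chromosome 6 from 108211222 to 108261040 (minus strand). Its levels were 100.5, 104.2 and 105.4 CPM in si-SNHG17 against 90.8, 90.0 and 96.5 CPM in si-NC. The groups did not overlap, and each knockdown library was above each control, but by a small margin. The difference on the log2 scale was 0.16 (standard error 0.079), with a 95% interval of -0.01 to 0.33, that is 0.994-fold to 1.26-fold. It did not pass the threshold over all genes; without si-NC replicate 3, which stood apart from the other 2 controls, it was 0.19 and passed narrowly.

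Added up, the pair was lower in every knockdown library. SNX3 and SNX12 together gave 111.6, 114.7 and 117.1 CPM in si-SNHG17 and 161.9, 167.9 and 173.3 CPM in si-NC. The sum was therefore 68.3% of the control level. SNX3 gained 10.9 CPM on average, against a loss of 64.1 CPM for SNX12, so that the gain equalled 17.0% of the loss. SNX12 made up 9.91%, 9.19% and 10.0% of the pair's counts in si-SNHG17 and 43.9%, 46.4% and 44.4% in si-NC. Per kilobase of one GENCODE transcript per gene (2422 bases for SNX12, 1755 for SNX3), the gain equalled 23.6% of the loss, and the sum was 75.8% of the control level. These are transcript levels; protein was not measured, and with bulk RNA fewer cells holding a transcript and less of it per cell cannot be told apart.

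**Figure D1:**
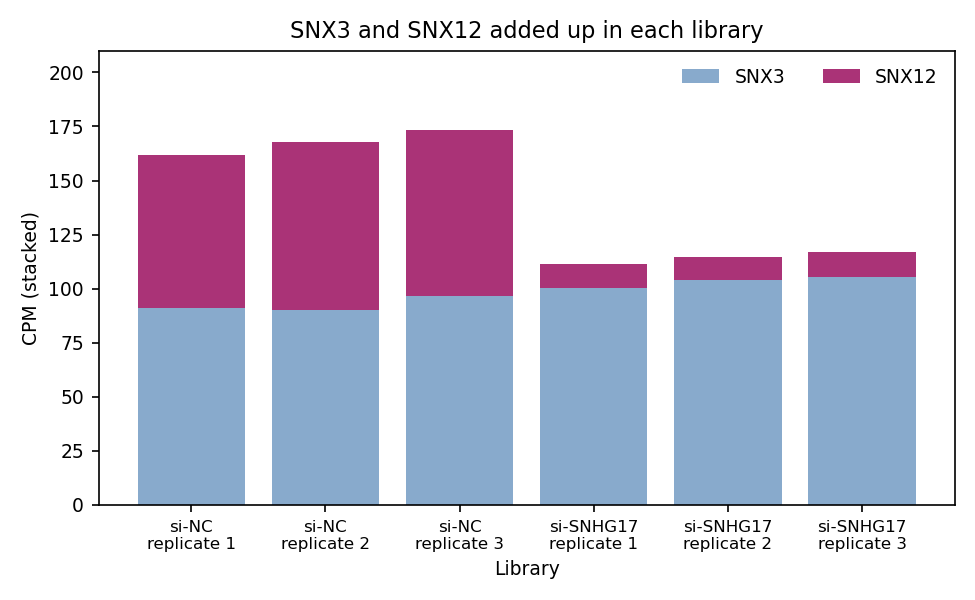
Levels of SNX3 and SNX12 in each of the 6 libraries, in CPM on a linear axis from 0, stacked so that the bar height is their sum. The 3 control bars reach 161.9 to 173.3 CPM and the 3 knockdown bars 111.6 to 117.1 CPM, and the SNX12 segment shrinks while the SNX3 segment is slightly taller.

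Among the paired BAR-domain members SNX2 rose, SNX5 fell, and SNX1 and SNX6 did not pass the threshold. SNX1 and SNX2 pair with SNX5 or SNX6 to form the tubules that carry the mannose 6-phosphate receptor back to the Golgi. SNX2 had 85.2, 87.0 and 93.3 CPM in si-SNHG17 and 57.5, 60.0 and 58.8 CPM in si-NC. The groups were well apart, with a log2 fold change of 0.59 and a standard error of 0.084. SNX1 had 164.4, 161.4 and 171.7 CPM against 158.4, 156.9 and 143.6 CPM, just above the controls without overlap. Its log2 fold change was 0.12 (95% interval -0.05 to 0.28), which did not pass.

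SNX5 had 125.9, 134.9 and 133.0 CPM in si-SNHG17 against 161.6, 148.9 and 164.2 CPM in si-NC, a log2 fold change of -0.27 with a standard error of 0.078. It passed the threshold, but without si-SNHG17 replicate 1 it was -0.24 and did not. SNX6 overlapped between the groups, at 47.3, 50.2 and 61.5 CPM against 53.7, 50.1 and 54.6 CPM, with a log2 fold change of 0.00 and a 95% interval of -0.23 to 0.24. Without si-SNHG17 replicate 3, its highest library, SNX6 was at -0.11. Reads of SNX5 and SNX6 may be shared with pseudogene rows, at means of 4.71 CPM for SNX5P1, 6.88 for SNX5P2 and 3.94 for SNX6P1 in si-SNHG17 and 6.21, 7.09 and 3.75 in si-NC. SNX5 also overlaps SNORD17 and OVOL2 on its own strand and MGME1 on the other, in GENCODE.

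SNX4 and SNX9 were less abundant. SNX4, which recycles the transferrin receptor, had 24.4, 27.2 and 28.9 CPM in si-SNHG17 and 20.8, 22.0 and 19.4 CPM in si-NC. The groups did not overlap, and the log2 fold change of 0.37 (standard error 0.117) passed the threshold. It did not pass without si-SNHG17 replicate 2 (0.36), si-SNHG17 replicate 3 (0.32) or si-NC replicate 1 (0.38). SNX9, which joins clathrin-coated pits to actin, was low and overlapped between the groups, at 5.75 to 7.61 CPM against 5.06 to 8.09 CPM. Its log2 fold change was -0.03 with a wide 95% interval of -0.48 to 0.43; the sign turned without si-SNHG17 replicate 2 (0.07), without si-NC replicate 2 (0.13) and with library totals as the only scaling (0.01).

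The FERM-like members differed in whether they could be measured at all. SNX17, which recycles LRP1 and integrins with the Commander complex, had the highest level of the 10. It had 192.5, 200.4 and 195.6 CPM in si-SNHG17 and 218.2, 230.1 and 235.7 CPM in si-NC, with no overlap. The log2 fold change of -0.22 (standard error 0.073) passed the threshold; it did not pass without si-SNHG17 replicate 1 (-0.20), 2 (-0.23) or 3 (-0.21), without si-NC replicate 2 (-0.21), with library totals only (-0.18), with no low-count filter (-0.20) or with a replicate block (-0.22). SNX17 overlaps ZNF513 on the other strand, and the sources used here do not say whether the counting used strand. SNX27, the PDZ-domain partner of retromer, had 2, 3 and 1 counts in si-SNHG17 and 2, 3 and 4 in si-NC, about the 3 counts that a count of 0 allows, so it was not tested and gets no fold. SNX27 overlaps RNU6-1062P on its own strand and AL391335.1 on the other, and how reads in such overlaps were counted is not given in the sources used here; its place in any order of levels rests on these few counts.

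**Figure D2:**
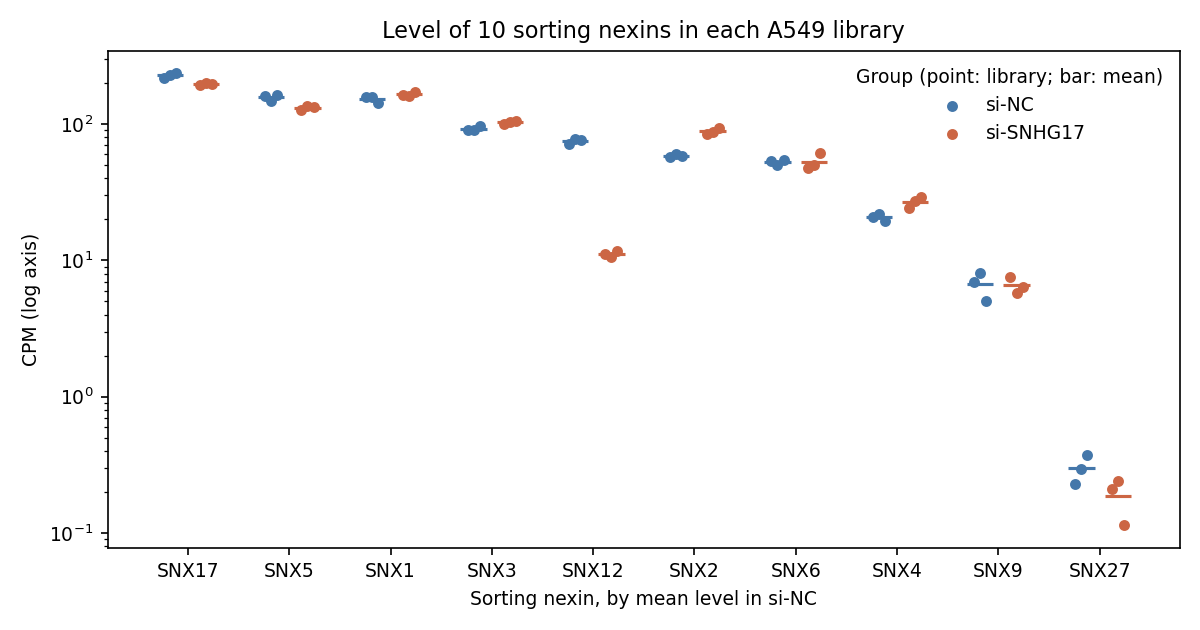
Level of each of the 10 sorting nexins in CPM on a log axis, with 1 point per library and a bar at the group mean, ordered by the si-NC mean. SNX12 shows the widest gap between its groups of the 9 members tested; SNX17 is highest at 192.5 to 235.7 CPM, and SNX27 lies below 0.4 CPM in all 6 libraries.

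In all, 9 of the 10 members passed the low-count filter. Of these, 2 were called higher (SNX2 and SNX4), beside 19.6% of all genes tested, and 3 lower (SNX12, SNX5 and SNX17), beside 19.6% of all genes tested. Together they were 55.6%, beside 39.1%, and without SNX12 they were 50.0% of 8. The groups did not overlap for 7 of the 9, or 6 of the 8 without SNX12, beside 49.4% of all genes tested. SNX12 was used to choose the set and the others share its contrast, so nothing is read from these shares. The median log2 fold change of the 8 tested members other than SNX12 was 0.06, and their range was -0.27 to 0.59. The 10 members summed to 782.8 ± 24.3 CPM in si-SNHG17 and 846.2 ± 8.03 CPM in si-NC. Without SNX12 the sums were 771.8 ± 24.0 and 770.9 ± 6.36 CPM (SD, n = 3 each), closer than their spread. Of the calls other than SNX12, that of SNX2 held in each of the 14 alternatives tried, and those of SNX4, SNX5 and SNX17 did not.

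Per length, SNX12 went from the middle of the family to near its bottom. In RPKM, the CPM per kilobase of transcript, the si-NC means were 112 for SNX17, 77.6 for SNX1, 69.1 for SNX5 and 52.7 for SNX3. SNX12 followed at 31.1, ranging from 29.3 to 32.1, then SNX2 at 27.6 and SNX6 at 26.4. SNX2 (27.0 to 28.2) and SNX6 (25.0 to 27.3) overlapped in range, and the other neighbours in this order did not. SNX4 was at 8.25, SNX9 at 1.60 and SNX27 at 0.0468. In si-SNHG17 SNX12 was at 4.59 RPKM, below SNX4 at 10.7 and above SNX9 at 1.57. The transcript the authors counted over is not given, and with the joined length of all GENCODE exons SNX1 (15.6) and SNX5 (19.9) came below SNX12 in si-NC.

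Of the 22 other sorting nexins and PX proteins, 19 were tested. Among these 7 rose and 3 fell (52.6%, beside 39.1% of all genes), with a median of 0.25 beside 0.01. With a replicate block in the fit, 4 rose and 3 fell, where 5579 of all genes passed in place of 6112. DESeq2 called 5 higher and 2 lower, with 5422 of all genes passing. The fits without 1 library called 7 to 8 of the 19. SNX21 rose from 9.52 to 20.7 CPM (log2 fold change 1.11, edgeR adjusted p = 1.77e-05) and SNX15, which pairs its PX domain with an MIT domain, from 19.1 to 36.4 CPM (0.93, edgeR adjusted p = 3.85e-05). SNX8, a BAR-domain member, rose as well (0.57). SNX19, which carries PXA and nexin C domains beside its PX domain, fell from 95.05 to 61.6 CPM (-0.63), and the lowest value among the 19 was -0.83, for ARHGAP33, named after its value was seen. SNX20, SNX31 and SNX32 had 0 counts in all libraries.

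**Figure D3:**
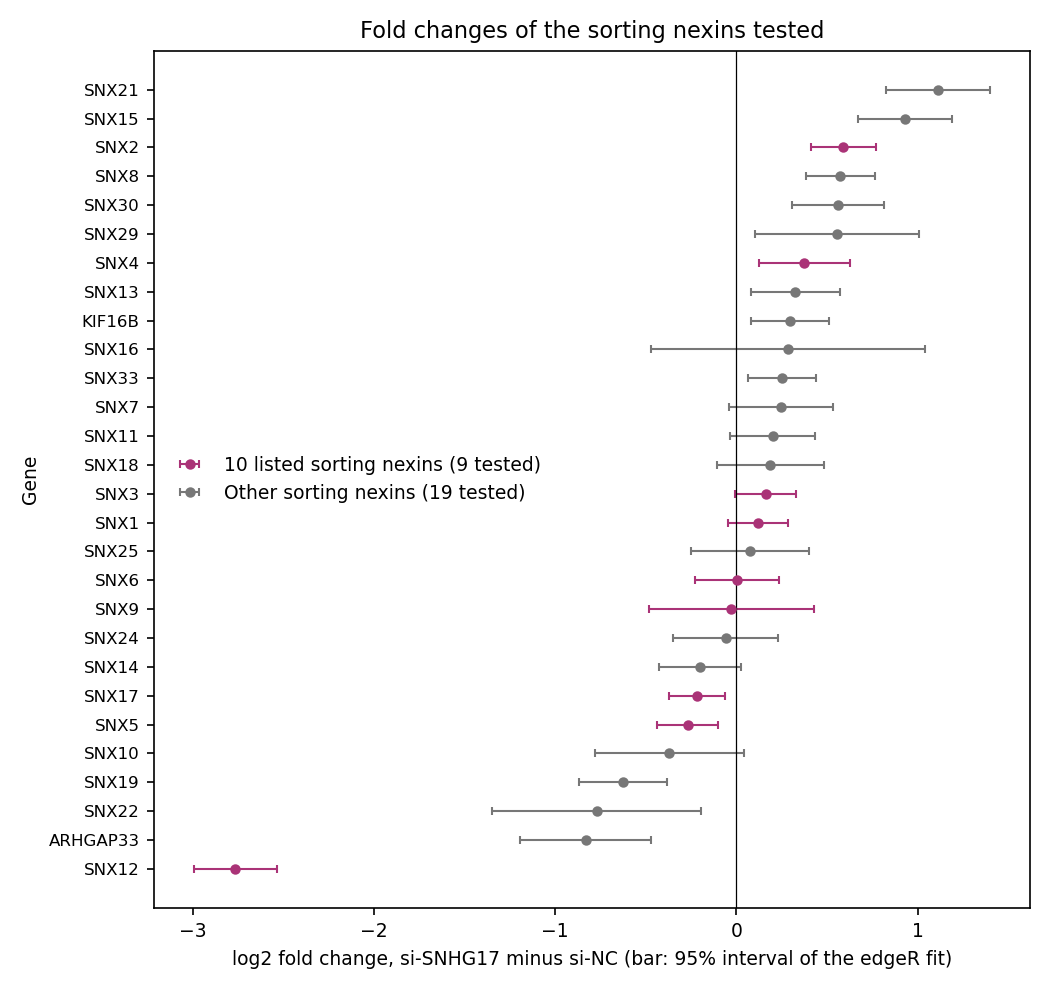
Log2 fold changes (si-SNHG17 minus si-NC) of the 28 sorting nexins and PX proteins tested, with 95% intervals from the edgeR fit; purple marks the 9 tested members and grey the 19 others. SNX12, at -2.76, stands apart from the rest, which lie between -0.83 and 1.11.

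Genes of retromer, the complex that several of these nexins recruit, and of Commander, which serves SNX17, were called about as often as all genes. More of them fell than rose. Of 19 retromer and Commander genes tested, 1 rose and 7 fell, beside 19.6% of all genes in each direction (42.1% together, near the 39.1% of all genes), with a median of -0.12. Without si-SNHG17 replicate 1 or si-NC replicate 1, 2 rose and 6 fell. Without si-NC replicate 3, 1 rose and 9 fell. COMMD7 (-0.76), COMMD4 (-0.82) and COMMD2 (-0.51), subunits of the COMMD ring, and DSCR3 (-0.52), the older name of the Retriever subunit VPS26C, had the smallest p among those that fell. The retromer core subunits were named after their values were seen. VPS35 was at 177.8 CPM in si-SNHG17 and 176.5 CPM in si-NC. VPS29 passed the threshold and fell from 67.7 to 51.5 CPM (-0.39). VPS26A (0.46) and VPS26B (-0.15) did not pass.

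Regulators of endosomal tubules moved in both directions. Of 23 genes for the WASH complex, recycling GTPases and EHD proteins, 6 rose and 7 fell (56.5%, beside 39.1% of all genes), with a median of 0.00. EHD1, an ATPase that cuts recycling tubules, rose from 152.4 to 300.9 CPM (0.98, edgeR adjusted p = 1.33e-06), and its relative EHD3 fell from 19.4 to 9.51 CPM (-1.03). TBC1D5, which binds retromer and switches off RAB7, fell from 124.1 to 47.8 CPM (-1.38, edgeR adjusted p = 4.27e-06), and ANKRD27, a retromer-bound partner of RAB21 and RAB32, rose (0.43). The row of WASH1 and those of FAM21A and FAM21C come from duplicated genes whose reads may be shared.

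The list of phosphoinositide enzymes held enzymes that make or remove these endosomal lipids, which many PX domains bind, and partner proteins of the enzymes. Of 16 genes tested, 1 rose and 3 fell. They were 25.0%, below the 39.1% of all genes, with a median of -0.10. The phosphatase MTMR4, which removes the lipid, fell from 85.4 to 41.4 CPM (-1.05), and the kinase PIK3C2B rose (0.72). PIK3R4 (-0.41), the regulatory subunit of the kinase VPS34, and MTMR1 (-0.33) fell too. PIK3R4 did not pass without si-SNHG17 replicate 3 (edgeR adjusted p = 0.0968) or si-NC replicate 2 (0.103). MTMR1 did not pass without si-SNHG17 replicate 3 (edgeR adjusted p = 0.11), si-NC replicate 1 (0.0935) or si-NC replicate 2 (0.0644), and 5 of the 16 fell without si-NC replicate 3.

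Genes for the cargo of sorting nexins and retromer rose more often than they fell. The list was chosen with earlier results of these data known, so its shares are a description. Of 19 tested, 10 rose and 3 fell (68.4%, beside 39.1% of all genes), with a median of 0.43 beside 0.01; without si-NC replicate 3, 6 fell. The integrin ITGA5 rose from 200.1 to 374.3 CPM (0.90), the iron transporter SLC11A2 from 79.3 to 141.4 CPM (0.84) and SEMA4C from 31.0 to 54.4 CPM (0.81). TGOLN2, a trans-Golgi protein returned through endosomes, fell from 435.5 to 254.0 CPM (-0.78). WLS, the SNX3 cargo, was named after its value was seen and rose from 19.2 to 30.2 CPM (0.65, edgeR adjusted p = 0.000442).

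The ESCRT machinery, which takes cargo the other way into lysosomes, changed in both directions. Of 24 genes tested, 5 rose and 6 fell (45.8%, near the 39.1% of all genes), with a median of 0.09. TSG101, the ESCRT-I subunit that binds ubiquitin, fell from 43.6 to 19.3 CPM (-1.18), while VPS37B of the same complex rose from 25.4 to 52.8 CPM (1.05). The ESCRT-III subunits CHMP2A (-0.83) and CHMP2B (-0.79) fell. Without si-SNHG17 replicate 2, 3 genes rose.

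**Figure D4:**
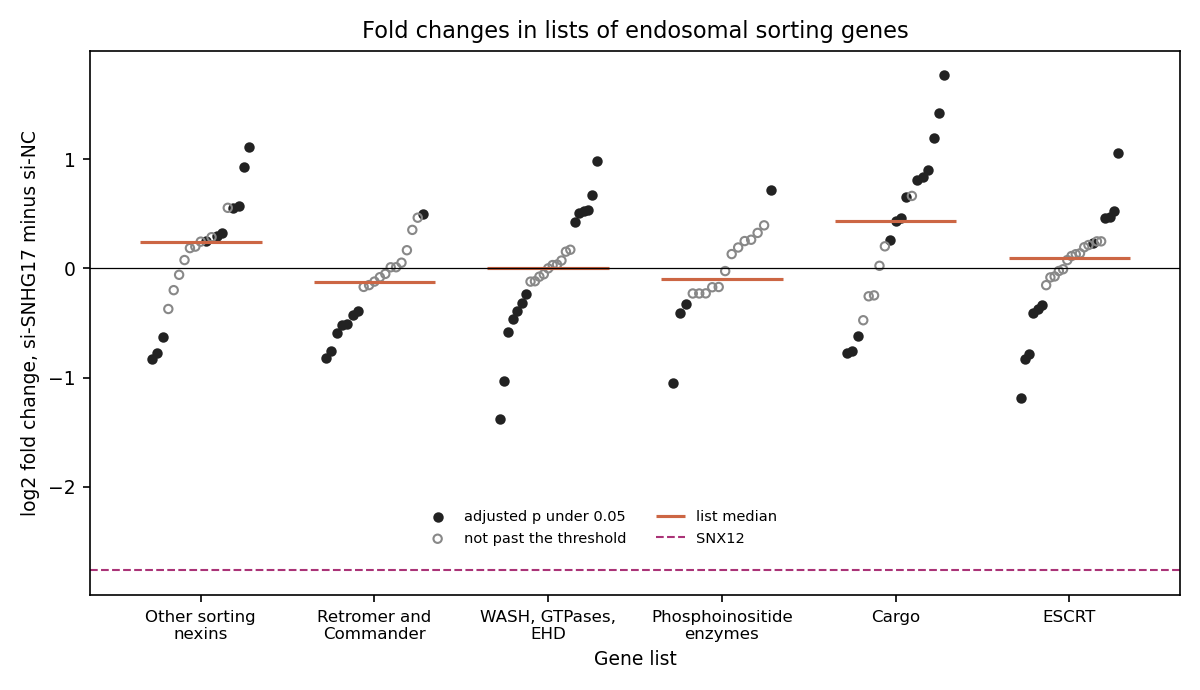
Log2 fold changes (si-SNHG17 minus si-NC) of the genes tested in 6 lists, 1 point per gene; filled points passed an adjusted p of 0.05 in the edgeR fit, orange lines are list medians and the dashed line is SNX12. The medians run from -0.12 to 0.43, and no gene of the lists reaches the SNX12 value of -2.76.

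A short 3 prime UTR sequence was also counted in the sorting nexins, because an earlier analysis of these same fold changes had singled it out; it was chosen from this contrast, so the counts are a description and support nothing. The sequence is the hexamer CTCTGT, searched on the transcript strand in 1 GENCODE transcript per gene. SNX12 held it 3 times in a 3 prime UTR of 1767 bases, and SNX3 did not hold it in 927 bases. Of the 12136 messenger RNAs tested, 11627 could be matched by name to a complete GENCODE transcript with a 3 prime UTR. Of these 11627, 46.5% held the hexamer, with a median UTR of 2112 bases against 559 bases for those without it. Among the tested members only SNX12 and SNX6 held it, SNX6 once with a log2 fold change of 0.00. Among the 19 other sorting nexins tested, the 8 that held it had a median log2 fold change of 0.22 and the 11 that did not had 0.25. The 8 lay on both sides of 0: SNX33 (6 matches) was at 0.25, SNX30 (5) at 0.56, SNX8 (4) at 0.57, SNX29 (3) at 0.55, SNX22 (3) at -0.77, SNX19 (2) at -0.63, SNX11 (1) at 0.20 and SNX18 (1) at 0.19. Over all those messenger RNAs, the median log2 fold change was -0.03 with the hexamer and 0.09 without it.

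The messenger RNAs with the profile closest to that of SNX12 were ACLY, ANAPC13, MLEC, CA12 and HYOU1, in that order. Closeness was the Euclidean distance over the 6 libraries between log2 CPM profiles set relative to their si-NC means, among 10007 messenger RNAs with a mean of at least 5 CPM. The distances ran from 0.276 to 0.430. ACLY, which makes cytosolic acetyl-CoA, went from 1024 ± 69.2 to 143.1 ± 7.30 CPM, a log2 fold change of -2.84. With 2 groups of 3 libraries, such a distance mostly reflects a fall of like size.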

How the data were processed

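The authors deposited whole-number counts of reads per gene, not normalized, for 54261 genes and 6 libraries of A549 RNA. Per the labels' protocols, Trizol RNA was made into Ion Total RNA-Seq libraries and sequenced single-end on an Ion Proton. Per the submitters' processing notes the genome build is GRCh38. No aligner, counter, annotation or use of strand is named in the sources used here. Chi-square per degree of freedom was 1.89 to 6.39 within groups and 26.4 to 38.2 between groups. The values of 6.39 and 6.11 were those of si-NC replicate 3 against the other controls. No library was a copy of another, but this check cannot show that they came from separate cultures.

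Counts were fitted in R 4.3.3 with edgeR 4.0.16: filterByExpr, TMM, then glmQLFit and glmQLFTest on a design of group alone, with Benjamini-Hochberg adjustment over 15614 genes. Standard errors and 95% intervals come from that fit. The procedure was tested on simulated data with known changes. Alternatives used DESeq2 1.42.0 and limma 3.58.1 (voom). An exact permutation test of 3 against 3 cannot go below p = 0.1 and was not used.

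Members and gene lists were chosen with earlier results of these data known, so the share called in a list is a description. Named genes were the members, SNHG17, the 4 called genes with the smallest p in each of 6 lists and the 5 closest to SNX12. RPKM used GENCODE release 29 transcripts (principal isoform, then longest); coding sequences were aligned with Biopython 1.88. Floors for counts cover counting error only. The intervals come from the edgeR fit and also take in the spread between libraries, which may be technical. Some items are not reported here.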

Additional observations from a re-analysis of the deposited data

How the results depend on the processing

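SNX12 ran from -2.80 to -2.72 on the log2 scale over all 14 alternatives (other scalings and tools, 2 filters, the replicate block, each library left out). Its share of the pair's counts, which no scaling can move, was computed again for the fits without 1 library and was 9.55% to 9.96% in si-SNHG17 and 44.1% to 45.4% in si-NC. The pair's sum was 67.1% to 69.4% of the control level over the fits without 1 library and 70.1% with library totals. The SNX3 gain equalled 15.3% to 20.4% of the SNX12 loss without 1 library and 21.4% with library totals. Per kilobase of transcript it was 21.2% to 28.3% and 29.6%. With library totals SNX17 was at -0.1795 and SNX9 at 0.0092. With no low-count filter SNX17 was at -0.2048, and limma-voom gave SNX6 -0.0085. Fitting a replicate block called 5579 genes (5515 in common with the 6112 without it), 4 rises among the other sorting nexins in place of 7, SNX17 at -0.2167 (no longer past the threshold) and SNX6 at -0.000923. Libraries of like number had correlations of deviations of 0.061, -0.11 and -0.091, and the best match of a library was in 0 cases its own number, so the numbers were not taken to pair them. Rises among the retromer and Commander genes numbered 2 in place of 1 with library totals, limma-voom or no filter, and rises among the phosphoinositide enzymes 2 in place of 1 with library totals or no filter. Leaving out each library gave 4911 to 6601 genes and 3 to 6 members called (1 to 3 higher, 1 to 3 lower). It gave 1 to 2 rises and 6 to 9 falls among retromer and Commander genes. Among the phosphoinositide enzymes it gave 3 to 6 calls (1 to 2 rises, 1 to 5 falls). It gave 3 to 6 falls among cargo and 3 to 6 rises among ESCRT genes. Over the same fits SNX3 ran from 0.1392 to 0.1912, SNX4 from 0.3237 to 0.4410, SNX5 from -0.3140 to -0.2359, SNX6 from -0.1093 to 0.0813, SNX9 from -0.2039 to 0.1343 and SNX17 from -0.2491 to -0.1942. The causes were not tested. The 1 to 4 counts of SNX27 are too few for any comparison.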
